A study of Mus musculus with 6 samples.

Results

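The endothelial cells of 4T1 tumours were described as the droplet barcodes that carried endothelial transcripts and few keratin transcripts. A barcode is the tag of 1 droplet, and a unique molecular identifier (UMI) marks 1 captured RNA molecule. A barcode with 300 or more genes and at most 20% mitochondrial UMIs was taken as endothelial when Cdh5, Egfl7 and Plvap together reached 5 per 10000 UMIs and 3 raw UMIs. At least 2 of these genes had to be detected, and Epcam, Krt7, Krt8 and Krt18 together had to lie below 12 per 10000 UMIs. The rule was met by 343 of 42259 barcodes that passed the quality filters, out of 42902 deposited. These barcodes were chosen by measured levels, so the levels of the rule genes describe the choice and are not findings.

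The series holds 6 libraries of droplet single-cell RNA sequencing, 3 in each group. 4T1 cells derive from a mouse mammary tumour. In the group called shNC the 4T1 cells received a lentivirus with a non-targeting short hairpin RNA, and in the group called shPgk1 a hairpin against Pgk1, which encodes the glycolytic enzyme phosphoglycerate kinase. Both groups were exposed to virus for 48 h and then held in puromycin at 2 µg/mL for 7 days. The labels describe only 4T1 cells, and give no host animal, strain or age, while the matrices hold macrophages, fibroblasts, endothelial cells and other host cell types. The design text calls the 3 libraries of a group biological replicates, but nothing says whether they came from separate tumours, and every p-value here reflects only how these 6 libraries spread.

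Endothelial cells line blood and lymph vessels. Their junctions are built on VE-cadherin (Cdh5), claudin-5 (Cldn5) and Pecam1, and they respond to vascular endothelial growth factor (VEGF) through Kdr, Flt1 and Flt4, to angiopoietins through Tek, and to Delta-like 4 (Dll4) through Notch receptors. In growing tumours, tip cells lead sprouts, capillary cells exchange nutrients, venous cells admit leukocytes and arterial cells carry inflow. Lymphatic cells are a separate lineage set by the transcription factor Prox1.

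Of the genes that mark this lineage, Egfl7 (a secreted vessel protein, chr2:26580014-26593120 on the plus strand), Emcn (the sialomucin endomucin, chr3:137341067-137432185, plus strand) and Cldn5 (chr16:18776847-18778262, plus strand; all GENCODE M21, GRCm38) have promoter windows in RefSeq's GRCm38.p6 table. Each window runs from 250 bases before to 50 after the transcription start. They are shown because ETS factors such as Erg, read from these barcodes below, bind sites with a GGAA core. Capitals mark AGGAAG or its reverse complement CTTCCT, searched on both strands. The windows are Egfl7 at chr2:26583615-26583914, Emcn at chr3:137340828-137341127 and Cldn5 at chr16:18776597-18776896, all on the plus strand.
Egfl7: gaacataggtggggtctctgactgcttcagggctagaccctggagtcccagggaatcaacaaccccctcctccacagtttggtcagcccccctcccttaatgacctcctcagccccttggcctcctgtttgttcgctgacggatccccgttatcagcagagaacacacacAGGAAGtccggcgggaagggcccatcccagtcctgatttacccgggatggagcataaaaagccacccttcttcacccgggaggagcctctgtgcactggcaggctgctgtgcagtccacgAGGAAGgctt
Emcn: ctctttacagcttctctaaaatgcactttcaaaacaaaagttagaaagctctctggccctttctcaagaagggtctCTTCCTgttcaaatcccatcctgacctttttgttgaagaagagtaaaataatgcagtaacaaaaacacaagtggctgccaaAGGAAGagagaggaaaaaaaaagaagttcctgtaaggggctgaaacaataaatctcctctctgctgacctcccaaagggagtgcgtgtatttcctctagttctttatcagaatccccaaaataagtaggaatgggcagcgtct
Cldn5: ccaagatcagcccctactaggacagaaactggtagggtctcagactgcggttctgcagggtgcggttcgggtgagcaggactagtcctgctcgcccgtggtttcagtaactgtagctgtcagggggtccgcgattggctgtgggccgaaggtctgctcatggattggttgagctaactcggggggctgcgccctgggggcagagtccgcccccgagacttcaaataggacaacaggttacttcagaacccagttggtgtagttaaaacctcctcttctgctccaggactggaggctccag
This window, 1 of 3 that the table gives for Egfl7, held 2 matches, the Emcn window 2 and the Cldn5 window 0. Of the 65 genes that led these barcodes (below), 41 had entries in the table, and AGGAAG occurred in 26 of their 51 windows (51.0%) against 35.4% of all 32851 windows. CCGGAA, which holds the same GGAA core, ran the other way, with 9.80% of the leading windows against 14.9% of all, and either of these motifs occurred in 58.8% against 45.2%. For comparison, AACAAT in 13.7% against 10.7% and AGATAA in 11.8% against 11.2%. A match is a description of letters and not of binding.

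The shNC libraries 1 to 3 gave 41, 72 and 81 endothelial barcodes, and those labelled shPgk1 gave 36, 76 and 37. As a share of passing barcodes these were 0.533%, 1.16% and 1.18% in shNC, and 0.537%, 1.02% and 0.501% in the libraries labelled shPgk1. One library of each group lay on the other group's side, so the groups overlapped. The means were 0.959% ± 0.369 and 0.687% ± 0.293 (SD, n = 3 and 3), a difference of -0.272 percentage points (two-sided exact permutation test, p = 0.3, where 0.1 is the smallest p this design can give). Among barcodes that were not rich in keratin the difference was 0.0683 points with the opposite sign (exact permutation test, p = 1). The 95% Wilson intervals in the plot of shares cover counting error only.

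**Figure D1:**
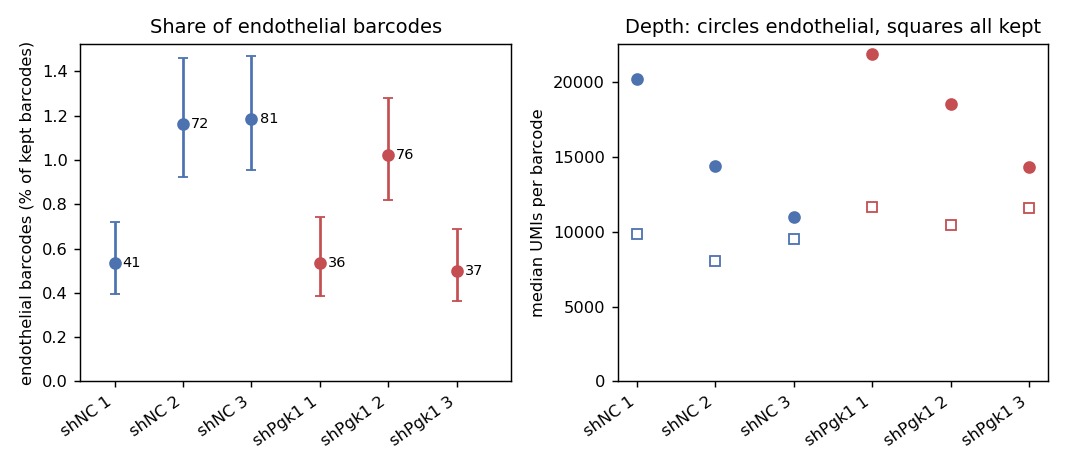
Endothelial barcodes as a percentage of passing barcodes in each library with 95% Wilson intervals and the number of barcodes beside each point (left), and median UMIs per endothelial barcode (circles) and per passing barcode (squares, right). Blue is shNC and red is the libraries labelled shPgk1. Each group has 1 library or more near 0.5% and 1 or more above 1%.

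Endothelial barcodes held more UMIs than passing barcodes as a whole. Their median UMI counts were 20231, 14413 and 11015 in shNC and 21883, 18585 and 14370 in the libraries labelled shPgk1 (exact permutation test, p = 0.5), against 8086 to 11664 over all passing barcodes. The rule asks for 3 raw UMIs and 2 detected genes, so it leaves out shallow barcodes. Over all libraries the endothelial median was 15647 UMIs. Classes chosen by the same limits had medians of 13701 (macrophage) and 21921 UMIs (fibroblast), so this depth was not particular to endothelium. Summed over barcodes, a library gave between 722271 and 1675547 endothelial UMIs, and none was counted as a second copy of another (chi-square between pairs divided by its degrees of freedom, 2.97 to 7.16). At the rule's limit, the lowest members held between 5.10 and 7.22 rule-gene UMIs per 10000, and the nearest barcodes outside it between 1.26 and 4.94. Between 3 and 16 barcodes a library met every other condition but lay under the limit.

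The targeted gene did not follow its label. In keratin-high barcodes, the class with epithelial tumour markers, Pgk1 stood at 279, 244 and 224 CPM (counts scaled to a common total) in shNC against 244, 292 and 317 CPM in the libraries labelled shPgk1. In endothelial barcodes it was 264, 236 and 282 CPM against 212, 324 and 357 CPM, with overlapping groups and a log2 fold of 0.14 ± 0.17 (SE; edgeR quasi-likelihood test, adjusted p = 0.95). Libraries are therefore called by their label below.

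The label was checked on markers that the rule did not use. These were Pecam1, detected in 94.5% of endothelial barcodes, Tie1 in 86.9%, Esam in 85.1%, Emcn in 82.8%, Gpihbp1 in 73.2%, Kdr in 72.01% and Cldn5 in 63.6%. In macrophage barcodes, with a median of 13701 UMIs against 15647, the same genes were detected in 28.8%, 2.97%, 3.02%, 3.13%, 2.84%, 3.86% and 1.30%. The lineage transcription factors Erg and Sox18 were detected in 76.7% and 72.6% of endothelial barcodes and in 1.79% and 0.804% of macrophage barcodes.

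In all, 65 genes with a mean of at least 50 CPM were 10-fold or more above each of the macrophage, fibroblast, pericyte and keratin-high classes (5 CPM added to both sides). They are described without a test, since the rule sorted the cells, and the rule genes Cdh5, Egfl7 and Plvap are among the 65. The macrophage, fibroblast, pericyte and keratin-high classes held 14063, 370, 83 and 19815 barcodes. Only 3 of the pericyte barcodes were in library 1 labelled shPgk1. Gpihbp1, which anchors lipoprotein lipase on capillaries, averaged 679 CPM against at most 7.28 CPM in another class. Nts, the neurotensin precursor, averaged 313 CPM (range 172 to 401) against at most 1.75 CPM. Cldn5 averaged 406 CPM against at most 7.53 CPM. The list also held receptors (Kdr, Flt4, Tie1, Aplnr, Robo4, S1pr1), Notch genes (Dll4, Notch4), transcription factors (Erg, Sox7, Sox18, Mecom, Bcl6b) and Nos3, the endothelial nitric oxide synthase. The 10-fold limit was set on means over libraries. In the lowest single library the fold was 19.5 for Gpihbp1, 24.5 for Nts and 14.1 for Cldn5. It was 6.07 for Erg, 5.17 for Sox7, 5.56 for Bcl6b, 4.45 for S1pr1 and 1.36 for Aqp1.

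**Figure D2:**
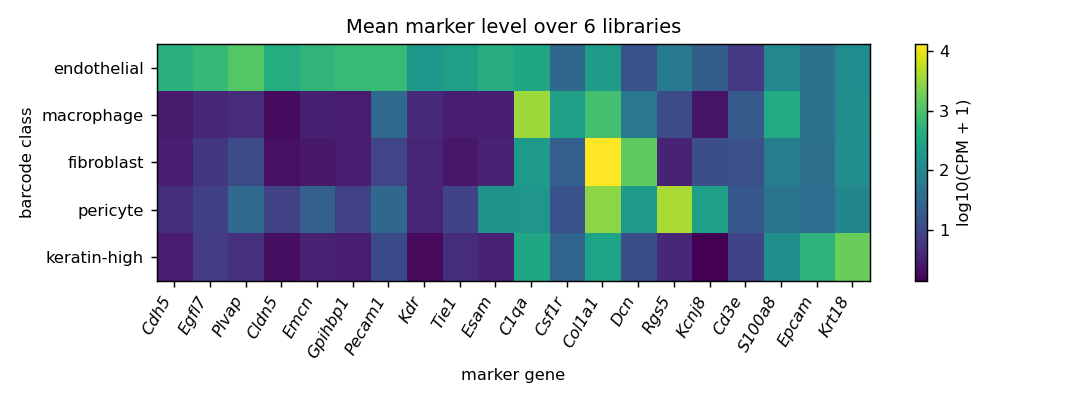
Mean level over 6 libraries of marker genes (columns) in 5 barcode classes (rows), as log10(CPM + 1). The 10 endothelial markers on the left are bright in the endothelial row, and markers such as C1qa, Col1a1 and Krt18 are above 0 in every row, as are the other genes drawn.

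Transcripts of other cell types were present. The 8 macrophage markers summed to 1512, 1279 and 1206 CPM in the endothelial sums of shNC and to 961, 664 and 871 CPM in those labelled shPgk1, 22.2% of the level over other barcodes. C1qa was detected in 92.1% of endothelial and 82.2% of keratin-high barcodes, and the macrophage marker Adgre1 was at 0 in some libraries. The 6 fibroblast markers summed to 332 to 475 CPM in shNC and 208 to 365 CPM in the libraries labelled shPgk1, with Lum and Pdgfra at 0 in some libraries. Pericyte markers were high in shNC 2 (282 CPM) and in library 1 labelled shPgk1 (272 CPM), against 49.8 to 72.2 CPM elsewhere. Neutrophil markers reached 764 CPM in library 3 labelled shPgk1 and 15.6 CPM in library 1. The 8 epithelial tumour markers, 4 of which the rule limits, summed to 444, 412 and 622 CPM in shNC against 565, 786 and 684 CPM, and over other barcodes they averaged 2888 and 4801 CPM. Their median log2 fold was 0.42, with 0 of 8 lower, where 4170 of all 8559 genes tested were lower. Since the rule caps 4 of them, these values describe levels and are not a finding. Red cell markers summed to 337 CPM in shNC 2 and to at most 17.6 CPM elsewhere. Barcodes with 10 or more per 10000 UMIs of another class's genes numbered 3, 11 and 21 in shNC and 5, 4 and 4 in the libraries labelled shPgk1, and most of them carried macrophage genes.

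Vessel types were read from small gene sets, counting a barcode when at least 2 genes of a set were detected. The sets were chosen with earlier results of these data known, and no test was made. A lymphatic pattern (Prox1, Mmrn1, Ccl21a, Reln, Lyve1) was found in 24 barcodes, 3, 8 and 3 in shNC and 2, 6 and 2 in the libraries labelled shPgk1, or 7.00% in all. Among macrophage barcodes the mean share over libraries was 0.0287%. After thinning each barcode to 5000 UMIs, which left out 57 barcodes, the mean share over libraries was 6.64%. Thinned shares given below for other sets are such means too, while the shares before thinning are pooled.

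Lymphatic barcodes also differed in genes outside the set. Summed over these 24 barcodes, the chemokine Ccl21a stood at 1507 CPM and was at 0 in the remaining endothelial barcodes, as the set implies. Outside the set, the VEGF-C receptor Flt4 stood at 439 CPM against 50.8, podoplanin (Pdpn) at 229 CPM against 14.0, the transcription factor Maf at 359 CPM against 14.0, and Nr2f2 at 214 CPM against 32.9. Blood-vessel genes ran the other way, with Gpihbp1 at 59.2 CPM against 726, Emcn at 109 CPM against 583, Flt1 at 159 CPM against 791 and the fatty acid carrier Fabp4 at 193 CPM against 2960. Cldn5 was 1437 CPM against 331, higher in lymphatic barcodes in 6 of 6 libraries.

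Tip cell genes (Apln, Esm1, Kcne3, Angpt2) marked 144 barcodes (42.0%, thinned 22.4%). By library these were 26.8%, 34.7% and 42.0% in shNC and 41.7%, 59.2% and 37.8% in those labelled shPgk1. In 6 of 6 libraries tip barcodes carried more Adm, the vasodilator adrenomedullin (150 CPM against 39.9), more placental growth factor Pgf (515 CPM against 162), more Nid2, a basement membrane protein (223 CPM against 125), and more Emcn (658 CPM against 394). The fatty acid transporter Cd36 was lower in 5 of 6 libraries (114 CPM against 270).

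Capillary genes (Car4, Cd300lg, Meox2, Kit) marked 153 barcodes (44.6%, thinned 20.8%), venous genes (Ackr1, Selp, Sele, Vwf) 58 (16.9%, thinned 10.2%) and arterial genes (Gja4, Gja5, Hey1, Sema3g, Bmx) 34 (9.91%, thinned 4.36%). Macrophage barcodes met these sets in 0.175%, 0.210% and 0.0299% of cases, as means over libraries. Capillary barcodes carried more Cd36 (258 CPM against 45.4) and Fabp4 (3715 CPM against 1150), both in 6 of 6 libraries. Venous barcodes carried more Aqp1, a water channel (1405 CPM against 411), and more of the cytokine Csf3 (331 CPM against 68.4), each in 5 of 6 libraries. Neither was particular to them. Capillary barcodes also carried more Aqp1 (881 CPM against 294, in 6 of 6) and Csf3 (178 CPM against 62.8, in 5 of 6). Arterial barcodes carried more of the chemokine Cxcl12 (286 CPM against 27.8) and of the thrombin receptor Thbd (123 CPM against 25.5), both in 6 of 6. Cxcl12 was also higher in capillary barcodes (86.1 CPM against 20.8, in 5 of 6), and Cd36 in arterial barcodes (344 CPM against 154, in 5 of 6).

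The blood-vessel sets were not separate groups of barcodes. Of 144 tip barcodes, 78 (54.2%) also met the capillary set, which was 51.0% of the capillary barcodes. Of 58 venous barcodes, 37 (63.8%) met the capillary set. Barcodes that met a set were deeper, with a median of 24263 UMIs for tip barcodes against 10605 for the rest, and 22989 against 9331 for capillary barcodes. For the lymphatic set the medians were 17393 and 15580, and of its 24 barcodes 4 (16.7%) met the tip set, 2 the capillary set, 1 the venous set and 1 the arterial set.

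**Figure D3:**
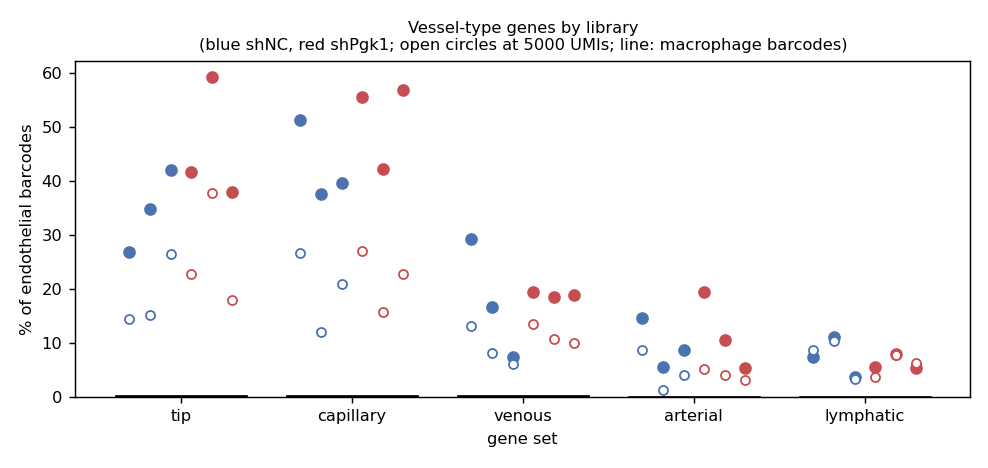
Percentage of endothelial barcodes in each library with at least 2 genes of a vessel-type set (filled circles), the same after thinning to 5000 UMIs (open circles), and the mean percentage of macrophage barcodes (black line). Thinning lowers the tip and capillary shares, while the lymphatic share is 7.00% pooled before thinning and 6.64% as a mean over libraries after it.

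Cycling was read from 8 proliferation genes (Mki67, Top2a, Birc5, Cdk1, Ccnb1, Ccna2, Cenpf, Ube2c). After thinning to 2000 UMIs, 3.29%, 8.54% and 9.61% of endothelial barcodes in shNC had 2 or more of them, and 9.31%, 10.3% and 9.86% in the libraries labelled shPgk1. Library 1 of shNC was lowest and the groups overlapped. The means were 7.15% ± 3.38 and 9.81% ± 0.484 (SD, n = 3 and 3; two-sided exact permutation test, p = 0.2). The difference of 2.66 points was 0.738 points without shNC 1, and up to 3.89 points without another library. Without thinning they were 40.5% and 41.5%. Thinning left out 5 barcodes in shNC and 4 in the libraries labelled shPgk1. No class here is known to lack these genes, so a background share was not measured.

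The difference between groups was tested on counts summed over endothelial barcodes in each library. Of 8559 genes tested with edgeR's quasi-likelihood test, 3 passed an adjusted p of 0.05 (0.0351%), all lower in the libraries labelled shPgk1, and 520 had an unadjusted p under 0.05 (6.08%). The 3 lie outside the rule for named genes and are named after their values were seen.

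Ctss, the lysosomal protease cathepsin S, stood at 316, 301 and 262 CPM in shNC against 162, 142 and 144 CPM in the libraries labelled shPgk1. The groups did not overlap, with a log2 fold of -1.02 ± 0.15 (SE; edgeR, adjusted p = 0.0309). Arginase 1 (Arg1) stood at 57.5, 65.6 and 71.6 CPM against 29.9, 20.1 and 23.5 CPM, a log2 fold of -1.49 ± 0.23 (edgeR, adjusted p = 0.0309). Both are macrophage genes in these libraries. The endothelial level of Ctss was 9.01% of that in macrophage barcodes and 20.5% of that over other barcodes, and Arg1 was at 5.55% and 12.6%. Over other barcodes Ctss averaged 1295 CPM in shNC and 862 CPM in the libraries labelled shPgk1, and Arg1 465 and 248 CPM. Within macrophage barcodes themselves Ctss gave a log2 fold of 0.11 (edgeR, adjusted p = 0.478) and Arg1 -0.20 (adjusted p = 0.317). The part of macrophage RNA in the endothelial difference was not tested. Without the mixed barcodes the log2 folds were -0.97 for Ctss and -1.40 for Arg1, and neither gene passed (edgeR, adjusted p = 0.206 and 0.186). Both also missed it without shNC 2 (adjusted p = 0.109 for each), without library 2 labelled shPgk1 (0.349 for each) and without library 3 labelled shPgk1 (0.227 and 0.203), and Arg1 missed it without shNC 3 (adjusted p = 0.0877).

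The third, Gm14015, is a long intergenic non-coding RNA at chr2:106463823-106523103 on the minus strand. Its level was 32.8, 19.8 and 17.3 CPM in shNC, and it had no count in the endothelial barcodes labelled shPgk1. With 89 counts in shNC and a floor of 3 counts over the group, it was at least 23-fold lower there. The same split was seen outside endothelium, at 27.1 and 0.201 CPM in macrophage barcodes and at 27.3 and 0.108 CPM over all other barcodes. Its edgeR adjusted p was 0.0105, and 0.138 without library 2 labelled shPgk1.

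Genes with an endothelial level at or above that of other barcodes gave no call. They numbered 5551, of which 248 had an unadjusted p under 0.05, 129 higher and 119 lower, and the lowest p adjusted over them was 0.299 (a split chosen after the data were seen). Of the 3008 genes below the level of other barcodes, 272 had an unadjusted p under 0.05, and 218 of these were lower. Of the 20 smallest p-values, all belonged to genes that were lower, and 17 to genes below the level of other barcodes.

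**Figure D4:**
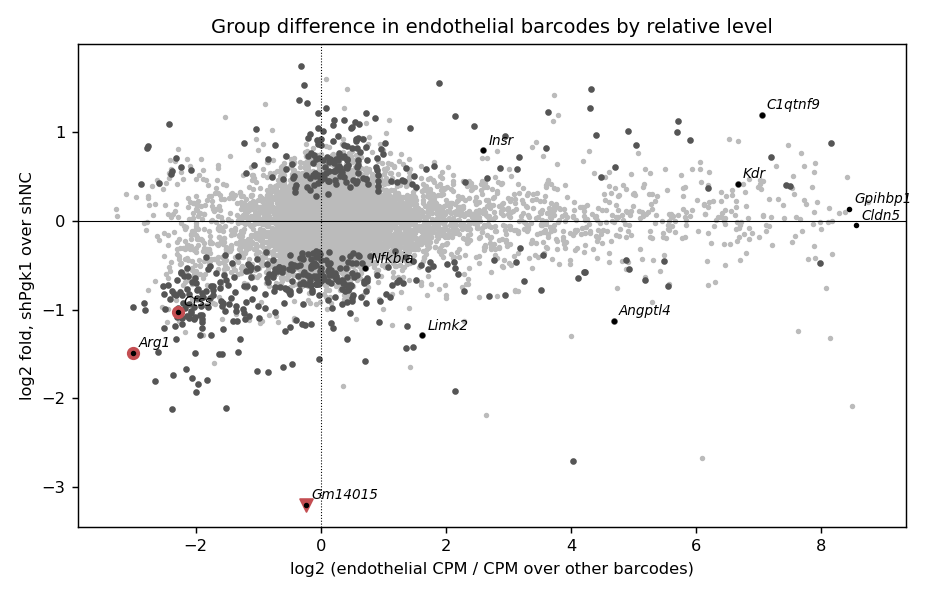
Log2 fold between groups in endothelial sums (vertical) against the log2 ratio of endothelial to other barcodes (horizontal) for the genes tested. Grey points are all genes, dark points have an unadjusted p under 0.05, red marks the 3 genes past the adjusted threshold, and the triangle is Gm14015, drawn at the lower edge because it has no count in the libraries labelled shPgk1. Ctss and Arg1 lie at the left, where the endothelial level is below that of other barcodes, and Cldn5 and Gpihbp1 lie at the right near a fold of 0.

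By the rule for named genes, the smallest p-values among genes whose level in the higher group was at or above that of other barcodes are given next, none past the threshold. With no filter on low counts, 5 of these genes passed (edgeR, adjusted p = 0.00304 for C1qtnf9, 0.039 for Insr, 1.92e-06 for Limk2, 0.00723 for Syne3 and 0.00778 for Nfkbia). On the higher side, C1qtnf9, a secreted C1q/TNF-related protein, stood at 20.5, 28.9 and 15.5 CPM in shNC and 61.1, 32.6 and 65.1 CPM in the libraries labelled shPgk1 (log2 fold 1.20 ± 0.31; edgeR, adjusted p = 0.414). The insulin receptor Insr stood at 58.5, 59.3 and 37.0 CPM against 104, 80.3 and 92.8 CPM (adjusted p = 0.444). Atp2a2, the calcium pump of the endoplasmic reticulum, the co-chaperone Ptges3 and the membrane-curving protein Fnbp1l had log2 folds of 0.68, 0.51 and 0.81, with adjusted p-values between 0.478 and 0.486. The rule asks for groups that do not overlap, which held for 7.58% of all genes on the higher side.

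On the lower side, Limk2, a kinase that controls actin, stood at 60.6, 128 and 116 CPM against 34.7, 41.4 and 55.4 CPM (log2 fold -1.29 ± 0.26; edgeR, adjusted p = 0.167). Limk2 also passed with DESeq2 (adjusted p = 0.0163), with the libraries blocked by number (edgeR, adjusted p = 0.0266) and without shNC 1 (edgeR, adjusted p = 0.00822). Syne3, a nuclear envelope protein, stood at 40.03, 28.9 and 22.1 CPM against 11.98, 11.9 and 9.69 CPM (adjusted p = 0.197). Nfkbia, the inhibitor of NF-kB that NF-kB itself induces, stood at 3552, 2853 and 2968 CPM against 2353, 2360 and 1984 CPM, a log2 fold of -0.54 ± 0.13 (adjusted p = 0.34). The scaffold Akap12 and the RNA-binding protein Arid5a had log2 folds of -0.64 and -0.71 (adjusted p = 0.306 and 0.423). Over both groups Arid5a was at 94.8% of its level in other barcodes, so it met the condition on level through shNC, where it was higher. Groups that did not overlap on the lower side made up 4.97% of all genes.

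No member of the 26 gene lists passed the threshold in this test of endothelial sums, though some passed the interaction test given below. The median log2 fold of all genes tested was 0.01. The 5 VEGF receptors and co-receptors had a median of -0.01. Flt1 stood at 765, 757 and 671 CPM in shNC against 750, 827 and 681 CPM. Kdr stood at 148, 179 and 130 CPM against 236, 217 and 176 CPM (log2 fold 0.42; unadjusted p = 0.0274, edgeR adjusted p = 0.741), and its groups overlapped. Angptl4, a lipoprotein lipase inhibitor, stood at 550, 291 and 568 CPM against 232, 260 and 174 CPM (log2 fold -1.12 ± 0.28; adjusted p = 0.483), with all libraries of shNC above all labelled shPgk1. Such a split on the lower side held for 4.97% of all genes. Angptl4 belongs to the angiopoietin and TIE list, whose 6 tested members had a median of 0.13. At an unadjusted p under 0.05, 1 was higher and 1 lower, where 2.14% of all genes were higher and 3.94% lower.

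In the Notch pathway the ligand Dll4 stood at 153, 235 and 202 CPM in shNC against 252, 145 and 159 CPM, and the target Nrarp at 26.7, 26.1 and 36.4 CPM against 41.9, 46.4 and 41.5 CPM (log2 fold 0.49; unadjusted p = 0.0477, edgeR adjusted p = 0.816). The 10 tested members had a median of 0.14. Bmp4, a bone morphogenetic protein, stood at 11.3, 13.4 and 8.95 CPM against 22.8, 30.1 and 20.8 CPM (log2 fold 1.12 ± 0.30; adjusted p = 0.423). Id2, a target of this pathway, stood at 84.2, 74.1 and 69.2 CPM against 71.9, 36.4 and 58.1 CPM (log2 fold -0.53 ± 0.24; edgeR, adjusted p = 0.812). They were the 1 higher and 1 lower of 11 tested members at an unadjusted p under 0.05, where 2.14% of all genes were higher and 3.94% lower. The list's median was -0.00. The gap junction gene Gja4 stood at 39.0, 13.4 and 9.55 CPM against 38.3, 58.3 and 71.995 CPM (log2 fold 1.49 ± 0.49; adjusted p = 0.662), with shNC 1 inside the range of the other group.

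No structural gene passed the threshold. Junction genes (12 tested) had a median of 0.06, caveola and fenestra genes (9 tested) 0.02, basement membrane genes (14 tested) 0.08 and endothelial transcription factors (19 tested) 0.08. Cldn5 stood at 380, 387 and 454 CPM in shNC against 497, 404 and 316 CPM, and Pecam1 at 603, 609 and 634 CPM against 629, 775 and 660 CPM. Ctnnb1, beta-catenin, stood at 172, 195 and 175 CPM against 218, 316 and 227 CPM (log2 fold 0.45; unadjusted p = 0.0146, edgeR adjusted p = 0.641).

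Antigen presentation genes lay on the lower side without passing the threshold. All 14 tested had a log2 fold below 0, where 4170 of all 8559 genes tested did, and the median was -0.45. Of the 14, 5 had an unadjusted p under 0.05, all lower, where 3.94% of all genes did. These were Tap1, a peptide transporter, and the class II genes Cd74, H2-Aa, H2-Ab1 and H2-Eb1. H2-Aa stood at 1166, 929 and 858 CPM in shNC against 755, 464 and 564 CPM (log2 fold -0.78 ± 0.20; edgeR, adjusted p = 0.444). Class II genes are macrophage genes in these libraries too, and the endothelial level of Cd74 was 14.1% of that in macrophage barcodes. The summed macrophage markers moved with them, as given above, and their part was not tested. By the interaction test given below, the effect on H2-Aa was lower in endothelial than in macrophage barcodes (difference -0.85 ± 0.15; edgeR, adjusted p = 0.000758). The same held for Cd74, H2-Ab1 and H2-Eb1 (-0.96, -0.81 and -0.87; edgeR, adjusted p = 0.027, 0.00511 and 0.00173), while Tap1 was not called. The class I genes H2-K1 and B2m, carried by most cells, had log2 folds of -0.10 and -0.06.

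Leukocyte adhesion and chemokine genes had a median of -0.53 over 13 tested. Cxcl16 stood at 151, 103 and 94.3 CPM in shNC against 70.7, 57.7 and 56.8 CPM (log2 fold -0.95 ± 0.22; unadjusted p = 0.000549, edgeR adjusted p = 0.235), at 13.9% of its macrophage level. Cxcl9, an interferon-induced T cell attractant, was 2892, 1116 and 1154 CPM against 1699, 112 and 1164 CPM. Icam1, the leukocyte adhesion receptor, was 444, 322 and 281 CPM against 368, 267 and 269 CPM, and the groups overlapped.

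Interferon genes had their extremes in single libraries of both groups. Of 21 interferon-stimulated genes, library 1 labelled shPgk1 was highest for 9 and shNC 1 for 8, and library 2 labelled shPgk1 was lowest for 15. Ubd, an interferon-induced ubiquitin-like gene among the 65 leading genes, ran from 55.2 CPM in library 2 labelled shPgk1 to 2088 CPM in shNC 1. Gbp2b stood at 440, 149 and 127 CPM in shNC against 237, 74.0 and 115 CPM. For antigen presentation genes the extremes were alike, with shNC 1 highest for 11 of 14 and library 2 labelled shPgk1 lowest for 13.

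**Figure D5:**
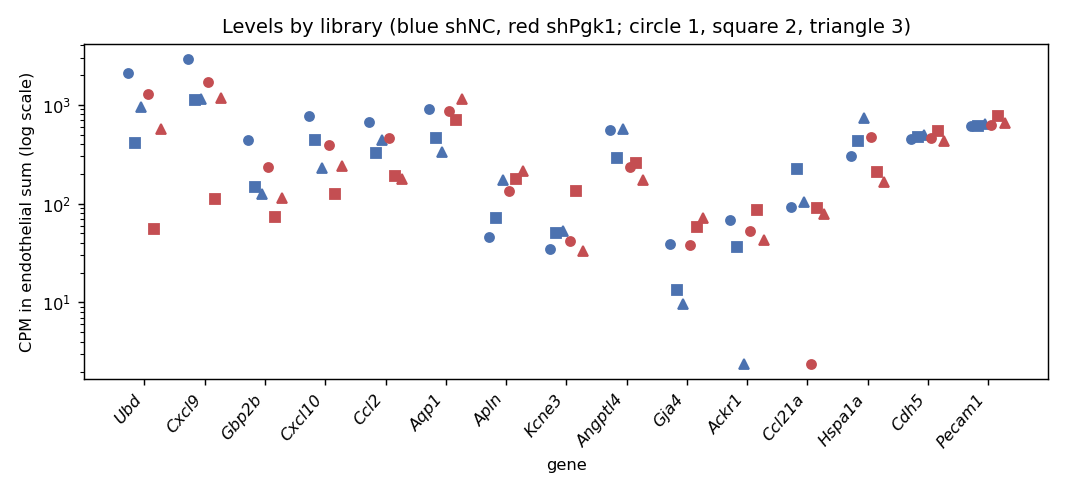
Endothelial CPM on a log axis for selected genes in each library, blue for shNC and red for the libraries labelled shPgk1, with circles, squares and triangles for libraries 1 to 3. Ubd and Cxcl9 are lowest in library 2 labelled shPgk1, while Cdh5, used in the rule, and Pecam1 are close to level. A library at 0 would not be drawn on a log axis, and none of these genes was at 0.

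Of 16 glycolysis genes tested, 1 was higher and 2 lower at an unadjusted p under 0.05, where 2.14% of all genes were higher and 3.94% lower, and the median was 0.01. Hexokinase 2 (Hk2) stood at 76.0, 64.2 and 47.7 CPM in shNC against 40.7, 28.8 and 41.5 CPM (log2 fold -0.83 ± 0.24; edgeR, adjusted p = 0.505), and Pfkl at 62.6, 81.9 and 99.1 CPM against 109, 125 and 99.7 CPM (log2 fold 0.40; adjusted p = 0.816). In fatty acid handling, Fabp4 stood at 3983, 1648 and 3139 CPM against 3064, 2022 and 3680 CPM, and the groups overlapped. Of the 11 members tested in that list, 8 lay below 0, and the median was -0.06. At an unadjusted p under 0.05, 1 of the 11 was lower and 0 higher. Of 12 heat shock genes 3 were higher at an unadjusted p under 0.05, where 2.14% of all genes were. They were the mitochondrial chaperones Hspd1 and Hspe1 (log2 folds 0.38 and 0.35) and Dnaja1 (0.34), none past the adjusted threshold. For NF-kB targets 15 of 16 lay below 0, where 4170 of all 8559 genes tested did, with a median of -0.25. Library 1 of shNC was highest for 9 of the 16, and library 3 labelled shPgk1 was lowest for 8.

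The group difference was then set against that in other cells of the same libraries with an interaction term. Against macrophage barcodes, 127 of 15291 genes differed (0.831%, edgeR, adjusted p under 0.05), 76 with a higher and 51 with a lower effect in endothelium. Of these genes, 52 of the 76 were at least 5-fold more abundant in endothelial barcodes and 39 of the 51 at least 5-fold more abundant in macrophage barcodes. Flt1 had a log2 fold of -0.01 in endothelium and -1.11 in macrophage barcodes, where its mean was 11.8 CPM against 742 (difference 1.09 ± 0.18; edgeR, adjusted p = 0.000568). Sparc, a matrix glycoprotein, had 0.19 and -1.60 (difference 1.69 ± 0.19; adjusted p = 0.000177). The others named on this side were Tshz2 (0.30 in endothelium and -1.27 in macrophage barcodes), Tspan6 (0.49 and -1.53) and Pglyrp1 (0.15 and -1.20). Members of the gene lists were among the calls, and are named after their values were seen. Besides Flt1 and Sparc, the effect was higher in endothelium for Adm, Bcl6b, Cd34, Cldn5, Col4a1, Col4a2, Erg, Ets1, Hspa1b, Hspg2, Serpinh1, Sox18 and Timp1. It was lower for Cxcl1, Cxcl16, Hk2, Plau, Ptgs2 and the class II genes given above. A higher effect is a difference from macrophage barcodes, and not in itself a rise in endothelium.

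Closer in level were 35 of the 127 genes, within 5-fold between the classes. Among those named by rule, the guanine nucleotide exchange factor Rapgef2 had log2 folds of -0.53 in endothelium and 0.39 in macrophage barcodes (difference -0.97 ± 0.22; edgeR, adjusted p = 0.0128). The phosphatase Ptpre had -0.31 and 0.41 (difference -0.75 ± 0.18; adjusted p = 0.032), and Lmo2, a transcription cofactor of blood and endothelium, -0.27 and 0.71 (difference -0.98 ± 0.24; adjusted p = 0.0332). Ccdc34 had -0.62 and 0.24 (difference -0.86 ± 0.22; adjusted p = 0.0474). Ptpre did not pass without shNC 3, or without library 2 or 3 labelled shPgk1 (edgeR, adjusted p = 0.0776, 0.0698 and 0.207). Lmo2 did not pass without shNC 3 or without library 1 labelled shPgk1 (0.113 and 0.171). Ccdc34 did not pass without shNC 1, shNC 3, or library 1 or 3 labelled shPgk1 (0.0687, 0.0661, 0.079 and 0.243).

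Against fibroblast barcodes, 5 of 9983 genes differed (0.0501%), all lower in endothelium. Among them Col1a1, Dcn, Thbs2 and Tnc are matrix genes that fibroblasts express, and are named after their values were seen. Dcn also helps to choose the fibroblast barcodes, so its call rests in part on values used for that choice. Cmss1, a ribosome-related gene, was the one within the rule, with log2 folds of -0.21 in endothelium and 0.57 in fibroblast barcodes (difference -0.77 ± 0.13; edgeR, adjusted p = 0.0425). It did not pass without shNC 2, or without library 1 or 2 labelled shPgk1 (adjusted p = 0.0956, 0.179 and 0.202).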

How the data were processed

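Droplet RNA was measured in 6 libraries grouped by title. Per the file headers, the deposited matrices hold raw UMI counts from PISA 0.12, and per the submitters' processing notes Seurat 4 and GRCh38 (hg38) were named, although the gene names are mouse names. The aligner was not given in the sources used here, nor the annotation. Barcode names are running numbers (42902 of 42902), of which 11389 recur between libraries, so they do not identify cells, and 0 count profiles were shared between libraries.

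Members and lists were chosen with earlier results of these data known. Barcodes were not removed as doublets. Scrublet's own threshold marked 1 barcode in each of 4 libraries and so had not worked, and a score above 0.25 (3 endothelial barcodes) was an alternative. Counts were summed per library and class and tested with edgeR 4.0.16 in R 4.3.3 (robust quasi-likelihood, TMM, filterByExpr, Benjamini-Hochberg over all genes tested). DESeq2 1.42.0 was an alternative. Log2 folds are shPgk1 over shNC labels. The SE of an edgeR log2 fold was derived as its absolute value divided by the square root of the quasi-likelihood F statistic. CPM are counts scaled to the class's summed UMIs. Shares were compared by exact permutation (scipy 1.17.1, Python 3.11.15). Only the edgeR fits were run on simulated counts. These had the same spread for every gene, so the check does not cover the spread of the real counts. Comparison classes used the same limits with C1qa, C1qb, Csf1r and Adgre1 (macrophage), Dcn, Lum and Pdgfra (fibroblast) or Rgs5, Higd1b and Kcnj8 (pericyte), or 12 or more Epcam and keratin UMIs per 10000 (keratin-high). Genes were named by a rule: the 12 largest changes in each direction past the threshold, with at least 20 CPM, no overlap and, in the higher group, an endothelial level at or above other barcodes, or, where fewer than 5 passed, the 5 smallest p-values meeting the other conditions. From interactions, up to 5 in each direction were named, and from each list the members with the highest CPM. Members of a list past an unadjusted p of 0.05 were chosen after their values were seen. Intervals and floors cover counting error only.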

Additional observations from a re-analysis of the deposited data

Results flagged for a closer look

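The group effect differed between cell classes by an interaction test (edgeR). Against macrophage barcodes this held for 127 genes, and against fibroblast barcodes for 5, including Dcn, which helps to choose the fibroblast barcodes. In log2 units, endothelial minus macrophage, the difference was 1.58 for Tshz2, 1.69 for Sparc, 1.96 for Tspan6, 1.09 for Flt1 and 1.40 for Pglyrp1. It was -0.97 for Rapgef2, -0.75 for Ptpre, -0.98 for Lmo2 and -0.86 for Ccdc34. With 1 library left out at a time, the call ended in 3 of 6 fits for Ptpre, 2 for Lmo2 and 4 for Ccdc34. Against fibroblast barcodes it was -0.77 for Cmss1, whose call ended in 3 of 6 such fits.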

How the results depend on the processing

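The difference in endothelial share reversed to 0.0683 points among barcodes that were not keratin-high, and ranged from -0.485 to -0.160 when 1 library was left out. The 3 endothelial gene calls became 13 with DESeq2, 79 without a low-count filter, 6 with stricter membership, 1 without mixed barcodes and 0 over genes at or above the level of other barcodes (an alternative chosen after the data were seen), and ranged from 0 to 12 when 1 library was left out: 0 without library 2 labelled shPgk1, 1 without library 3, 5 without library 1, and 12, 2 and 6 without shNC 1, 2 and 3. Against macrophages the 127 calls became 331 with a filter of 10 counts and ranged from 120 to 392, the highest without shNC 2, with 224 without shNC 1 and 229 without library 2 labelled shPgk1. Against fibroblasts the 5 calls ranged from 1 to 9, with 1 without library 1 or 2 labelled shPgk1, 3 without library 3 and 9 without shNC 1. With a replicate block the endothelial calls numbered 24 and the share, permuted within numbers, gave an exact permutation p = 0.5. Same-numbered libraries correlated at 0.21, 0.12 and -0.02 over 2783 genes, and shNC 3 correlated best with library 2 labelled shPgk1 (0.16), so the pairing by number was not used. DESeq2 gave no adjusted p for Gm14015. The causes of these changes were not tested. Each library held 36 to 81 endothelial barcodes.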
